A study of Homo sapiens with 183 samples.

Results

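CB-6644 was given to RH30 cells for 24 h, and the 4 treated libraries were compared with 4 libraries of the same line in DMSO, gene by gene. RH30 is an established human cell line of alveolar rhabdomyosarcoma, and the labels call these cells parental, so no resistance allele or knockout was present in either group. A gene counted as a member when its mean over the 8 libraries was at least 1 TPM (a transcript's share of all measured transcripts, scaled so that a library adds up to 1000000), which held for 12153 of the 19875 gene names in the table. The last gene inside this limit had a mean of 1.001 TPM and the first outside it 0.998 TPM. The 8 libraries belong to a series of 183 that mostly concerns pancreatic cancer lines and asks what depends on RUVBL1 and RUVBL2. Its table of nonpancreatic lines also holds T84 (colorectal), A375 (melanoma) and H1048 (small cell lung cancer) cells, each with 4 CB-6644 and 4 DMSO libraries after 24 h. All of these libraries carry the same batch number in the labels. The labels give RH30 no dose and do not say whether the replicates were separate cultures, so the p-values measure only the spread between these libraries, which may be technical.

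RUVBL1 and RUVBL2 are AAA+ ATPases that assemble into a ring, and CB-6644 is an allosteric inhibitor of their ATPase activity. The ring is a part of the chromatin remodelling complexes INO80, SRCAP and TIP60. With the R2TP cochaperone it also helps to build box C/D small nucleolar ribonucleoproteins (snoRNPs), RNA polymerase II and the kinases of the PIKK family. Alveolar rhabdomyosarcoma is a sarcoma of the skeletal muscle lineage whose cells express the muscle regulators MYOD1 and MYOG without completing muscle differentiation, usually under the fusion factor PAX3-FOXO1.

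Such shares do not keep the read depth, so no counting error is printed. A level of 1 TPM was reached by 11840 to 11909 genes per library in DMSO and by 12265 to 12363 in CB-6644. The libraries of a group correlated with each other with a mean Pearson r from 0.9963 to 0.9971 across genes, and none stood apart. Of the 12 defining markers of alveolar rhabdomyosarcoma, 11 were at 1 TPM or more in DMSO and TFAP2B was listed at 0 in all 8 libraries. Their summed level was 3413 to 3543 TPM in DMSO and 2186 to 2317 TPM in CB-6644. The 12 markers of T84 summed to at most 10.6 TPM in any RH30 library, and the 12 of blood and endothelial cells to 43.6 to 46.8 TPM in DMSO and 37.4 to 38.8 TPM in CB-6644. Of the latter PECAM1 alone held a mean of 41.8 and 33.2 TPM, and HBB, HBA1 and HBA2 were listed at 0. The 12 markers of H1048 summed to 52.1 to 55.9 TPM in DMSO and 34.8 to 38.2 TPM in CB-6644, mostly AVIL (mean 31 and 22.1 TPM) and SOX9 (14.1 and 7.28 TPM). The A375 list summed to 658 to 699.7 TPM in DMSO and 700.5 to 756 TPM in CB-6644, of which NES, which rhabdomyosarcoma cells also express, held 661 ± 19.1 and 705 ± 25.6 TPM.

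CB-6644 moved most of the transcriptome, mostly by small amounts. At an adjusted p under 0.05 (limma on log2(TPM + 1), Benjamini-Hochberg), 9446 of 12153 genes differed (77.7%), of which 6125 were higher (50.4% of all tested) and 3321 lower (27.3%). Of these 9446, 7000 (74.1%) differed by less than 1.5-fold. A change of 2-fold or more was seen in 410 higher genes (3.37%) and 193 lower genes (1.59%), a limit chosen after the data had been seen. The median log2 fold change of all tested genes was 0.13, and scaling by the median of ratios, which takes this shift away, gave 4603 higher (37.9%) and 4655 lower (38.3%) genes, so that rises were 49.7% of all changes against 64.8% unscaled. The 4 CB-6644 libraries all lay above the 4 DMSO libraries for 46.6% of the tested genes and all below them for 24.9%. Most genes named below were chosen for this lack of overlap, so for them it is not further support. With scaling, 293 genes were at least 2-fold higher and 281 at least 2-fold lower. Log2 fold changes below are given as measured and are on the log2(TPM + 1) scale, which understates the change of low genes, and medians of gene lists are given relative to that of all genes. Levels written with ± are the mean and SD over the 4 libraries of a group. TPM is a share, so a change in the total mRNA of a cell was not measured, and fewer cells of a kind cannot be told apart from less RNA in each cell.

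**Figure D1:**
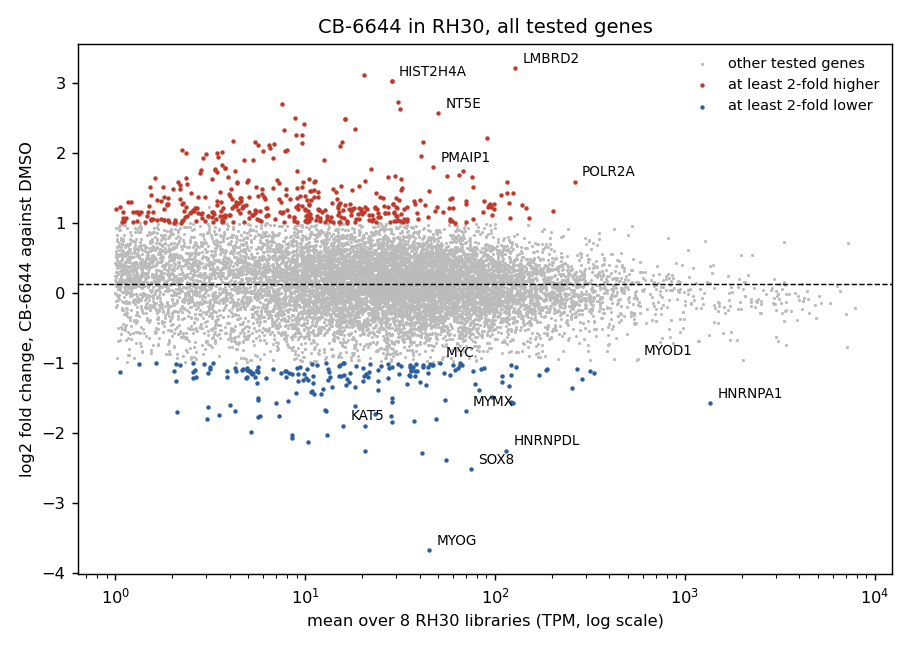
Log2 fold change of each of the 12153 tested genes (y axis, CB-6644 against DMSO on the log2(TPM + 1) scale) against its mean level over the 8 RH30 libraries (x axis, TPM, log scale), with genes past 2-fold and an adjusted p under 0.05 in colour. The dashed line is the median of all genes at 0.13, and MYOG at -3.67 and LMBRD2 at 3.21 lie farthest from it among the labelled genes.

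The target genes themselves changed little. RUVBL1 was at 171, 173, 178 and 176 TPM in the DMSO libraries and at 143, 149.6, 147 and 144 TPM in the CB-6644 libraries. Its 4 treated libraries lay below all controls, a log2 fold change of -0.26 (SE 0.025, limma, adjusted p = 1.09e-06). RUVBL2 was 164 ± 10.4 TPM in DMSO and 157 ± 8.53 TPM in CB-6644, a difference of -0.061 that did not pass (limma, adjusted p = 0.251) and that passed at -0.20 after scaling. CB-6644 acts on the protein, so these mRNA levels do not check the treatment.

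Most regulators of muscle identity were lower, and MYOG fell most among the genes named here. MYOG (chr1:203083129-203086012, minus strand, hg38), the bHLH factor that drives terminal muscle differentiation, was at 82.7, 85.2, 82.5 and 85.4 TPM in DMSO. It was at 5.11, 5.43, 7.0 and 5.23 TPM in CB-6644, a log2 fold change of -3.67 (SE 0.072, limma, adjusted p = 1.78e-12). The highest treated library was far below the lowest control, and CB-6644 replicate 3 was the highest of the treated. MYOD1 (chr11:17719571-17722136, plus strand, hg38), which commits cells to the muscle lineage, was at 740.4, 770.3, 684 and 751 TPM in DMSO and 359, 396, 388 and 365 TPM in CB-6644. It had the highest mean TPM, a value per transcript length, of the tested myogenic factors in both groups, and its log2 fold change was -0.96 (SE 0.04). MYMX, which encodes the fusogenic micropeptide myomixer, fell from 106, 117, 105 and 102 TPM to 32.5, 33.1, 31.5 and 33.4 TPM, a log2 fold change of -1.69 (SE 0.041), without overlap.

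Of 25 listed myogenic transcription and fusion factors, 22 were tested, of which 16 were lower and 3 higher, against 27.3% and 50.4% of all genes. Their median was -0.51 relative to all genes, and scaling gave 19 lower and 3 higher. The 3 that rose were ID2, an inhibitor of bHLH factors (42 ± 1.65 to 75.3 ± 2.59 TPM, log2 fold change 0.83), MEF2A (0.53) and PAX3. PAX3, the paired-box factor of muscle progenitors, was at 17.3, 16.4, 15.5 and 16.5 TPM in DMSO and 22.4, 23.2, 23.4 and 23.1 TPM in CB-6644, a log2 fold change of 0.46 (SE 0.042, limma, adjusted p = 5.54e-07). FOXO1 was higher by 0.35 (10.9 ± 0.502 to 14.2 ± 0.444 TPM, SD, n = 4 each). Gene-level values do not separate a PAX3-FOXO1 fusion transcript from either partner.

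**Figure D2:**
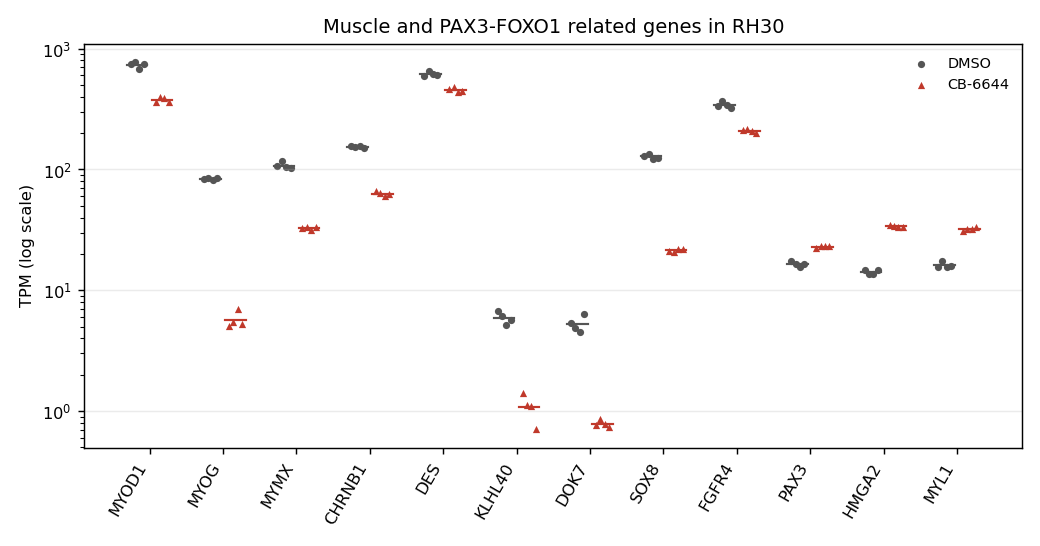
TPM (y axis, log scale) of 12 muscle and PAX3-FOXO1 related genes in each of the 4 DMSO (grey circles) and 4 CB-6644 (red triangles) libraries of RH30, with a bar at each group mean. MYOG drops from 83.9 to 5.69 TPM and MYMX from 108 to 32.6 TPM without overlap, while PAX3, HMGA2 and MYL1 lie higher in CB-6644.

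Genes of the contractile apparatus moved in both directions. Of 54 listed, 32 were tested, of which 15 were lower and 9 higher, against 27.3% and 50.4% of all genes. Their median was -0.30 relative to all genes, and scaling gave 19 lower and 7 higher. The cardiac actin gene ACTC1, which immature skeletal muscle also expresses, fell from 921 ± 19.8 to 564 ± 17.1 TPM (log2 fold change -0.71), and desmin (DES), the muscle intermediate filament, from 616 ± 25.6 to 457 ± 18.5 TPM (-0.43, SD, n = 4 each). ANKRD1, a titin-binding protein of stressed muscle, fell from 164 ± 6.5 to 79.5 ± 2.88 TPM (-1.04). The 3 that rose most had a mean of at most 16.2 TPM in DMSO. XIRP1, a striated muscle protein that binds actin, was at 2.41, 3.01, 2.29 and 2.25 TPM in DMSO and 7.28, 7.29, 6.91 and 7.63 TPM in CB-6644 (1.25). MYL1, a fast-fibre myosin light chain, went from 16.2 ± 0.946 to 32.3 ± 0.977 TPM (0.96) and LDB3, a Z-disc protein, from 2.26 ± 0.327 to 5.45 ± 0.497 TPM (0.99).

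Membrane, junction and excitation genes of muscle were mostly lower. Of 35 listed, 26 were tested, of which 17 were lower and 4 higher, against 27.3% and 50.4% of all genes (median -0.40, and 21 and 1 with scaling). DOK7, the adaptor that activates the receptor kinase of the neuromuscular junction, was at 5.34, 4.87, 4.49 and 6.36 TPM in DMSO and 0.768, 0.86, 0.786 and 0.735 TPM in CB-6644, a log2 fold change of -1.8 (SE 0.10). KLHL40, which stabilises thin filament proteins, was at 6.79, 6.13, 5.15 and 5.72 TPM and then 1.4, 1.11, 1.1 and 0.705 TPM (-1.75, SE 0.11). All treated libraries lay below all controls for both genes, which was a condition for naming them. CHRNB1, the beta subunit of the muscle acetylcholine receptor, was more abundant and fell from 154 ± 2.97 to 63.2 ± 2.22 TPM (-1.27). By contrast, CHRNA1, the alpha subunit of the same receptor, was at 371 ± 4.49 and 354 ± 7.6 TPM (-0.065), a difference that did not pass without CB-6644 replicate 2. SGCB, a sarcoglycan of the dystrophin complex, rose from 17.2 ± 0.374 to 31.6 ± 1.31 TPM (0.84). The rises of DMD (0.27) and JPH2 (0.19) no longer passed after scaling (0.14 and 0.066).

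Genes listed here as targets of PAX3-FOXO1 did not move as one. Of 26 listed, 19 were tested, of which 11 were lower and 6 higher, against 27.3% and 50.4% of all genes (median -0.39, and 12 and 3 with scaling). MYOG and MYOD1 belong to this list as well as to the myogenic factors, so the lists are not independent. SOX8 (chr16:981770-986979, plus strand, hg38), a SoxE transcription factor, was at 130.3, 135, 122 and 126 TPM in DMSO and 21.1, 20.9, 21.8 and 22.1 TPM in CB-6644, a log2 fold change of -2.52 (SE 0.038, limma, adjusted p = 1.59e-13). FGFR4, the fibroblast growth factor receptor typical of this tumour, was at 336, 369.6, 341 and 323 TPM in DMSO and 212, 217, 206 and 198 TPM in CB-6644 (-0.71, SE 0.04). MYCN went from 10.8 ± 0.694 to 6.92 ± 0.917 TPM (-0.58). These 3 were lower in every treated library than in any control, which was a condition for naming SOX8. HMGA2, an architectural chromatin protein of undifferentiated cells, rose from 14.8, 13.7, 13.5 and 14.8 TPM to 34.4, 34.1, 33.6 and 33.1 TPM (1.2, SE 0.042). Whether HMGA2 or any other listed gene is a target in RH30 was not tested. NOS1 rose from 9.25 ± 0.416 to 17.5 ± 0.465 TPM (0.85) and CXCR4, a chemokine receptor, from 143 ± 2.79 to 171 ± 5.19 TPM (0.26, and 0.12 after scaling).

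Growth factor and receptor genes moved both ways in shares near those of all genes, with 12 of 22 tested members higher and 7 lower against 50.4% and 27.3% of all genes (median 0.06; with scaling 8 and 8). IGF1R, the IGF receptor, was at 22.6, 20.3, 21 and 20.3 TPM in DMSO and 44.8, 42.8, 43.6 and 41 TPM in CB-6644 (1.0, SE 0.043). IRS1, the adaptor below it, fell from 41.8 ± 0.67 to 24.1 ± 0.621 TPM (-0.77). Among immediate early genes (13 of 31 higher, 13 lower), ATF3 rose from 57.7 ± 2.18 to 174 ± 5.62 TPM (1.58) and DUSP6, a feedback phosphatase of ERK, from 6.89 ± 0.802 to 13.9 ± 0.469 TPM (0.93). EGR1 fell, from 12.1, 12.2, 12.1 and 10.9 TPM to 2.51, 2.78, 3.27 and 2.62 TPM (-1.76, SE 0.072). Hedgehog, Notch, Wnt and BMP related genes had 15 lower and 10 higher members of 33 tested (median -0.22; with scaling 19 and 6). The Notch ligands JAG2 (17.6 ± 0.679 to 3.24 ± 0.358 TPM, -2.13) and DLL1 (-1.14) and the Notch target HEYL (-1.17) fell, and TGFBI, an extracellular protein induced by TGF-beta, rose from 54.6 ± 0.396 to 129.7 ± 2.77 TPM (1.23).

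The complexes that hold RUVBL1 and RUVBL2 changed at the level of single subunits. Of 32 tested subunits of INO80, SRCAP and TIP60, 13 were lower and 10 higher, against 27.3% and 50.4% of all genes (median -0.20, and 21 and 6 with scaling). KAT5, the acetyltransferase of TIP60, was at 23.1, 27.1, 27.7 and 24.6 TPM in DMSO and 6.37, 7.42, 5.15 and 5.72 TPM in CB-6644, a log2 fold change of -1.9 (SE 0.09, limma, adjusted p = 1.45e-09). ING3, a histone-mark reader of TIP60, fell from 18.7, 21.2, 20.2 and 19.7 TPM to 5.79, 5.16, 5.61 and 5.66 TPM (-1.68), and MCRS1, an INO80 subunit, from 53.5 ± 3.16 to 24 ± 1.75 TPM (-1.12). The TIP60 scaffold genes EPC1 (23.5 ± 0.456 to 41.6 ± 0.715 TPM, 0.80) and EPC2 (0.72) rose. The 2 groups did not overlap for any of these 5 genes, which was a condition for naming them. The R2TP partners gave 11 higher and 9 lower of 24 tested, against 50.4% and 27.3% of all genes (median -0.02, and 6 and 10 with scaling). PDRG1 rose from 93.2 ± 3.23 to 168 ± 1.16 TPM (0.84) and PIH1D1, a core R2TP subunit, fell from 111 ± 11 to 76.8 ± 5.01 TPM (-0.53).

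Of the clients, the mRNAs of the PIKK kinases changed by less than 2-fold. The ring helps to build the proteins, which were not measured here, so mRNA levels do not show whether the clients were affected. ATR, the kinase of stalled replication forks, was at 19.5, 17.8, 19.4 and 16.8 TPM in DMSO and 30.4, 28.1, 30 and 30.5 TPM in CB-6644 (0.67, SE 0.051). SMG1, which acts in nonsense-mediated decay, was higher by 0.27 and TRRAP lower by -0.22 on the log2 scale. MTOR (0.20) and PRKDC (0.15) were higher as measured but no longer passed after scaling (0.06 and 0.015), and ATM (0.093, limma, adjusted p = 0.303) did not pass and changed sign after scaling (-0.037). Among 17 subunits and assembly factors of RNA polymerase II, 13 were higher and none lower (limma, adjusted p under 0.05), against 50.4% and 27.3% of all genes. Their median was 0.11 relative to all genes, and after scaling 10 were higher and 2 lower. POLR2A (chr17:7484366-7514616, plus strand, hg38), the largest and catalytic subunit, was at 131, 132, 133 and 125 TPM in DMSO and 412, 400.4, 386 and 378 TPM in CB-6644, a log2 fold change of 1.59 (SE 0.031, limma, adjusted p = 1.78e-12). No other member of that list reached 2-fold, with POLR2L next at 0.87.

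snoRNP and ribosome biogenesis genes were mostly lower: 42 of 54 tested fell and 4 rose, against 27.3% and 50.4% of all genes (median -0.35, and 47 and 2 with scaling). NPM1, an abundant nucleolar chaperone, went from 2268, 2248, 2325 and 2409 TPM to 1414, 1412, 1465 and 1530 TPM (-0.67, SE 0.03). NOP2, an rRNA methyltransferase, fell from 117 ± 2.57 to 67.5 ± 3.46 TPM (-0.79), and RRN3, an initiation factor of RNA polymerase I, was one of the 4 and rose from 44.7 ± 1.4 to 84.3 ± 1.36 TPM (0.90). Of 79 cytosolic ribosomal protein genes, 43 were lower and 11 higher, and none was higher after scaling, when 68 were lower. RPL7A fell from 3758 ± 29.1 to 2850 ± 72.1 TPM (-0.40). Among the risers, RPL39 (0.19) and RPL36A (0.16) lay close to the median of all genes and gave 0.057 and 0.023 after scaling. Ribosomal protein genes have many near-identical pseudogenes that can share reads with them. MYC, a regulator of ribosome production, was at 67, 66.9, 68.8 and 66 TPM in DMSO and 33, 34.6, 33.1 and 32.1 TPM in CB-6644 (-1.0, SE 0.032), and 9 of 12 members of the MYC network were lower and 3 higher. MXD4, which opposes MYC, rose from 10.1 ± 0.248 to 18.2 ± 1.01 TPM (0.79).

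**Figure D3:**
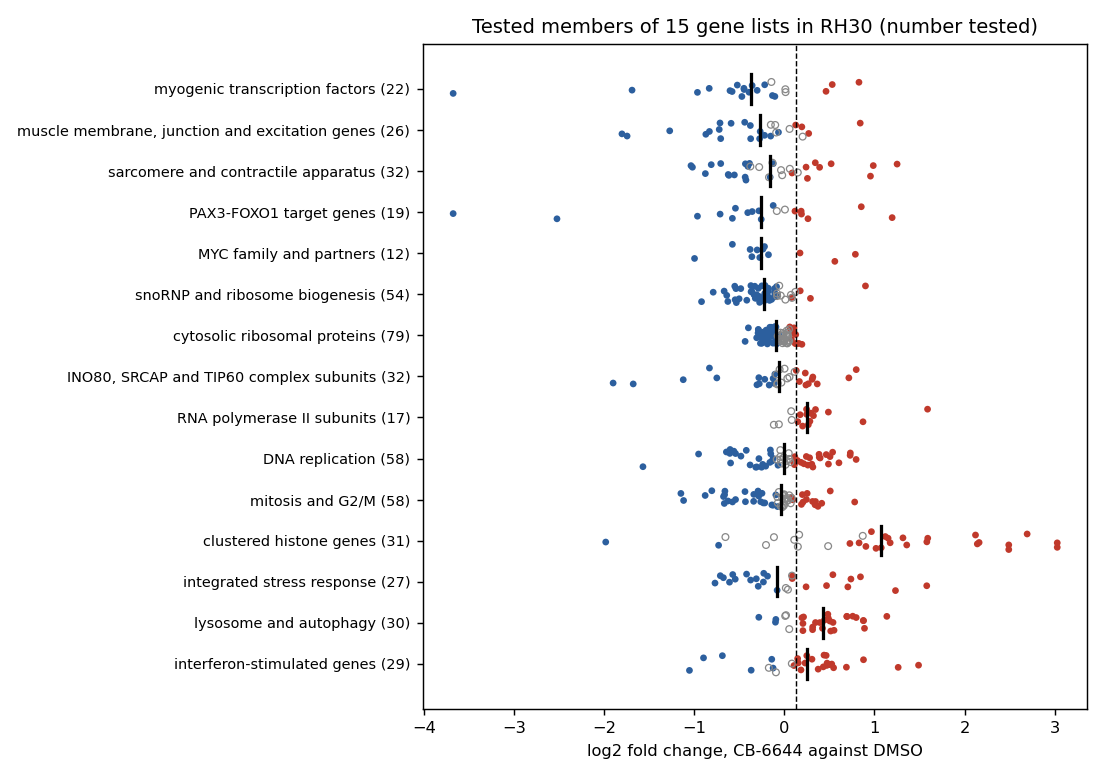
Log2 fold change (x axis, CB-6644 against DMSO in RH30) of the tested members of 15 gene lists, with 1 point per gene, filled where the adjusted p was under 0.05, and a black bar at each list's median. The dashed line is the median of all 12153 genes at 0.13; clustered histone genes lie farthest to its right, with a median of 1.08, and myogenic transcription factors have a median of -0.37.

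Clustered histone genes had the highest median of the 43 lists examined. Of 59 listed, 31 were tested, of which 21 were higher and 2 lower, and 17 of the 31 were at least 2-fold higher against 3.37% of all genes (median 0.94 relative to all genes). Scaling left these counts at 21 and 2. HIST2H4A and HIST2H4B, a pair of H4 genes (H4C14 and H4C15 in current names) on chromosome 1 with identical values, were at 5.05, 5.86, 7.94 and 3.58 TPM in DMSO and 58.5, 52.8, 48.8 and 46.2 TPM in CB-6644, a log2 fold change of 3.03 (SE 0.15, limma, adjusted p = 2.97e-09). HIST2H2AA4, which has the same values as its copy HIST2H2AA3, was at 3.22, 4.13, 6.18 and 3.63 TPM and then 26.9, 29.7, 32 and 24.3 TPM (2.49). HIST1H2BO was at 1.37, 1.51, 1.35 and 0.887 TPM in DMSO and 14.9, 13.3, 11.2 and 15.7 TPM in CB-6644 (2.69, SE 0.11). In each of these genes every treated library was above every control, as their choice required. HIST2H2AC moved the other way, from 6.88, 11.6, 7.9 and 8.9 TPM to 1.51, 2.28, 0.743 and 1.5 TPM (-1.98). Histone genes are near-identical copies of each other, so how reads were divided among them is uncertain. Replication-dependent histone mRNAs normally end in a stem-loop without a poly-A tail, and the libraries were poly-A selected, so these values count only the histone RNA that such a library captures.

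Stretches of histone promoters are shown because most tested histone genes were higher. RefSeq promoters (GRCh38.p14, 250 bases before to 50 after the start) were found for 25 of the 31 tested histone genes and for 9739 of the 12153 tested genes, and were searched on both strands for 7 motifs (the E-box CACGTG, the muscle E-box CAGCTG, the NF-Y box CCAAT, the ATF4 element TGATGNAA, the cyclic AMP element TGACGTCA, the G2/M element TTTGAA and the E2F element TTTCGCGC), which do not contain one another. CCAAT was in 19 of the 25 histone promoters (76%) against 37.5% of all tested promoters, the E2F-like TTTCGCGC in 6 (24%) against 1.09%, TGACGTCA in 4 (16%) against 3.43% and TTTGAA in 7 (28%) against 9.65%. CACGTG was in none. Among the 48 promoters of mitosis and G2/M genes TTTGAA was in 33 (68.8%) and CCAAT in 38 (79.2%). For the muscle lists and the snoRNP and ribosome biogenesis list fewer than 80% of the members had a promoter in the table, and their shares are not given. A match is a string of letters and no test was made. Below are 30-base stretches with the match in capitals, all upstream of the start, where CCAAT may read ATTGG and TTTCGCGC may read GCGCGAAA on the strand shown.
HIST1H2BO (chr6:27893217-27893246, plus strand), TTTCGCGC: gcagctgctggGCGCGAAAaagaagctggg
HIST1H2BO (chr6:27893335-27893364, plus strand), CCAAT: tctgagtaacttCCAATcagacagaagaat
HIST2H2AA4 (chr1:149850982-149851011, plus strand), CCAAT: aatttgcttgagCCAATcaaagtgctccgt
HIST2H2AC, which fell (chr1:149886836-149886865, plus strand), CCAAT: gccatattaggaCCAATgaaaaactcgttc
PLK1 (chr16:23678848-23678877, plus strand), TTTGAA: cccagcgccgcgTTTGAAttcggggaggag
The NF-Y box thus stood both in histone promoters whose genes rose and in that of HIST2H2AC.

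Cell cycle genes were split. Of 58 DNA replication genes 23 were higher and 23 lower, against 50.4% and 27.3% of all genes (with scaling 17 and 33). RRM2, the small subunit of ribonucleotide reductase, was at 189.5, 179, 189 and 185 TPM in DMSO and 60.2, 60.2, 64.1 and 63.3 TPM in CB-6644 (-1.57, SE 0.031), and MCM7, of the replicative helicase, fell from 556 ± 15.9 to 287 ± 8.34 TPM (-0.95). GINS4 (30.7 ± 0.451 to 54 ± 0.995 TPM, 0.80) and ORC6 (0.73), which act in the firing and the licensing of replication origins respectively, rose. Of 58 mitosis and G2/M genes 25 were lower and 14 higher (median -0.17; with scaling 42 and 9). CDC20, the activator of the anaphase-promoting complex, fell from 462, 467, 458 and 437 TPM to 205, 209, 206 and 201 TPM (-1.15) and PLK1, a mitotic kinase, from 106 ± 4.23 to 48.1 ± 1.17 TPM (-1.12). MKI67, the proliferation marker, was at 171 ± 4.2 TPM in DMSO and 174 ± 3.12 TPM in CB-6644 (log2 fold change 0.029, limma, adjusted p = 0.316), and after scaling at -0.11 it passed on the other side. CCND1, the D-type cyclin of G1, fell from 134 ± 2.7 to 82.3 ± 1.84 TPM (-0.70), and the kinase inhibitors CDKN2B (5.02 ± 0.359 to 17.1 ± 0.316 TPM, 1.59) and CDKN1A (104 ± 3.68 to 180.1 ± 1.69 TPM, 0.78) rose. Of 39 homologous recombination and Fanconi genes 22 were higher and 9 lower, near the 50.4% and 27.3% of all genes (median -0.02; with scaling 14 and 14), with BRCA2 up from 17.5 ± 0.628 to 35.7 ± 1.54 TPM (0.99) and NBN down from 24 ± 1.67 to 13.3 ± 1.86 TPM (-0.82).

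Of 15 tested BCL2 family genes 3 were higher, 6 lower and 6 not called, against 50.4% higher and 27.3% lower of all genes. Their median was -0.20 relative to all genes, and scaling gave 2 higher and 11 lower. The named genes of BH3-only proteins, which promote apoptosis, moved in both directions. PMAIP1, which encodes the BH3-only protein NOXA, was at 19.7, 21, 20.6 and 20.8 TPM in DMSO and 74, 69.3, 74.3 and 78.1 TPM in CB-6644 (1.8, SE 0.04). BBC3, the BH3-only gene PUMA, fell instead, from 9.11 ± 0.545 to 5.06 ± 1.27 TPM (-0.76), as did BCL2L11 (BIM), from 32.7 ± 2.51 to 21.4 ± 0.587 TPM (-0.59).

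Stress pathways did not rise as a block. In the integrated stress response list 14 of 27 tested genes were lower and 10 higher, against 27.3% and 50.4% of all genes (median -0.21, and 15 and 8 with scaling). Its central factor ATF4 fell from 487, 464, 474 and 474 TPM to 317, 307, 303 and 317 TPM (-0.61, SE 0.025), while ATF5 rose from 17.6 ± 0.961 to 42.7 ± 0.919 TPM (1.23) and SLC7A11, the cystine transporter, fell from 2.83 ± 0.234 to 1.25 ± 0.154 TPM (-0.77). ATF3, which belongs to this list as well as to the immediate early genes, rose by 1.58. ATF3 and ATF5 were the 2 members that were at least 2-fold higher. Of 19 unfolded protein response genes 14 were higher and 5 lower (median 0.08; with scaling 10 and 5): the sensor genes ERN1 (0.81), EIF2AK3 (0.64) and ATF6 (0.59) rose and the chaperone gene CALR fell from 1011 ± 7.54 to 655 ± 9.1 TPM (-0.63). HSP90AB1, a constitutive HSP90 gene, fell from 1607 ± 14.3 to 1059 ± 12.9 TPM (-0.60), and 7 of 9 subunits of the chaperonin CCT were lower. CCT8 was higher by 0.12 but gave -0.021 after scaling. CCT6B was the other higher subunit, from 0.669, 0.539, 0.685 and 1.23 TPM to 5.24, 5.37, 4.67 and 3.99 TPM (1.72). Of 35 listed heat shock genes 11 were tested here, of which 4 were higher and 5 lower.

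Lysosome and autophagy genes were mostly higher, with 24 of 30 tested up and 3 down against 50.4% and 27.3% of all genes (median 0.30; with scaling 21 and 5). NEU1, the lysosomal sialidase, was at 22.7, 26, 24.2 and 22.2 TPM in DMSO and 55.9, 54.2, 50.2 and 53.5 TPM in CB-6644 (1.14, SE 0.051), and GABARAPL1, an autophagosome protein, rose from 55.5 ± 2.24 to 104 ± 2.48 TPM (0.89). SQSTM1, the autophagy receptor p62, was at 134 ± 2.67 and 125 ± 0.754 TPM (-0.094). Interferon-stimulated genes gave 20 higher and 6 lower of 29 (median 0.12; with scaling 14 and 7), from IRF7 (2.16 ± 0.615 to 6.5 ± 0.838 TPM, 1.26) to USP18, which fell from 50.4 ± 0.598 to 23.8 ± 1.59 TPM (-1.05). Collagen and matrix genes gave 18 higher and 6 lower of 28 (median 0.05; with scaling 14 and 9). Among them TIMP2, a metalloproteinase inhibitor, rose from 168 ± 3.25 to 318 ± 3.44 TPM (0.92) and THBS1 (thrombospondin 1) fell from 169 ± 3.18 to 74.3 ± 1.94 TPM (-1.17). Sterol and fatty acid genes gave 15 higher and 7 lower of 28, near the shares of all genes (median 0.04; with scaling 14 and 9), with the regulator SREBF1 down from 34 ± 1.34 to 16.1 ± 0.941 TPM (-1.04). The spliceosome list gave 16 higher and 16 lower of 41 (with scaling 9 and 23), and its largest fall was HNRNPA1, a splicing regulator, from 2070, 1990, 2021 and 2040 TPM to 674, 682, 670.4 and 689.9 TPM (-1.58, SE 0.021).

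Outside these lists the largest rise was that of LMBRD2 (chr5:36098407-36151887, minus strand, hg38), a multi-pass membrane protein. It was at 25.5, 22.9, 23 and 24.7 TPM in DMSO and 234, 220.2, 239 and 231 TPM in CB-6644, a log2 fold change of 3.21 (SE 0.04, limma, adjusted p = 4.35e-14). NT5E, the ecto-nucleotidase CD73 that makes adenosine from AMP, was at 14.4, 13.7, 13.3 and 13.6 TPM in DMSO and 86.5, 85.4, 88.2 and 85.6 TPM in CB-6644 (2.57, SE 0.034). Each of these rises left no treated library near a control. KRCC1 rose from 7.38 ± 0.575 to 54.3 ± 2.75 TPM, PCYOX1L from 8.04 ± 0.223 to 55 ± 3.46 TPM and PAQR8, a membrane progestin receptor, from 1.95 ± 0.0883 to 15.7 ± 0.38 TPM. LOC112268238 rose from 3.47 ± 0.578 to 37.5 ± 1.55 TPM. Among the largest falls, ADORA1, the adenosine A1 receptor, was at 67.4, 73.6, 69.5 and 66.3 TPM in DMSO and 13, 14.2, 13.7 and 12.7 TPM in CB-6644 (-2.29, SE 0.045). HNRNPDL, an RNA-binding protein, was at 191, 187, 191 and 193 TPM and then 39.4, 37.7, 39.8 and 39.1 TPM (-2.26, SE 0.027). IGLL5 (-2.39), FAM178B (-2.26), MARCKS, a kinase C substrate at the membrane (-2.08), PRR5, a subunit of mTORC2 (-2.03), and SARS2, the mitochondrial seryl-tRNA synthetase (-2.03), made up the rest of the 10 largest falls with MYOG, SOX8 and JAG2.

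**Figure D4:**
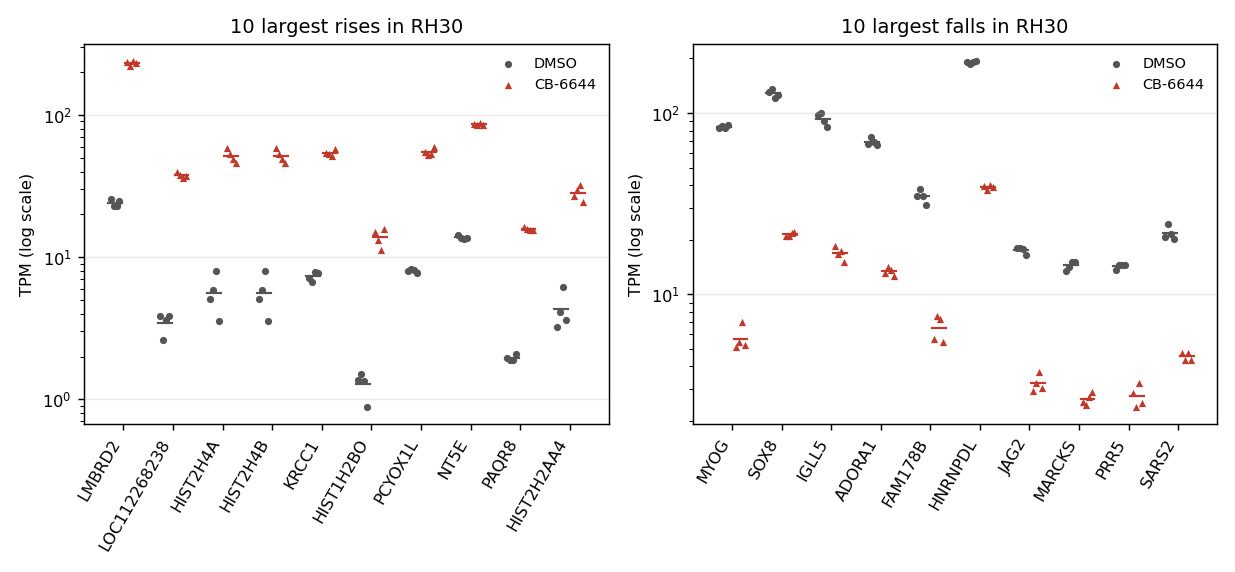
TPM (y axis, log scale) of the 10 named genes with the largest rises and the 10 with the largest falls in each DMSO (grey circles) and CB-6644 (red triangles) library of RH30, with a bar at each group mean. These genes were chosen so that the groups do not overlap, with CB-6644 above DMSO in the rises and below it in the falls. LMBRD2, for example, lies at 231 against 24.0 TPM.

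The other 3 lines were used to see where RH30 differed. In a fit of all 32 libraries on the 10356 genes that averaged 1 TPM or more in each line, the effect of CB-6644 in RH30 differed from the mean effect in T84, A375 and H1048 for 5862 genes (56.6%), lying above it for 2849 (27.5%) and below it for 3013 (29.1%). A difference of 2-fold or more was seen for 34 genes above (0.328%) and 91 below (0.879%). Across these genes, which are not independent, the log2 fold changes in RH30 had a Pearson r of 0.672 with T84, 0.675 with A375 and 0.663 with H1048. The lines share no library. In this fit 50.8% of genes were higher and 26.3% lower in RH30, against 51.4% and 26% in T84, 50.4% and 31% in A375, and 53.1% and 25.1% in H1048. Of the 308 genes at least 2-fold higher in RH30 in this fit, 262 (85.1%) were also higher in all of the other 3 lines and 5 in none of them. Of the 123 at least 2-fold lower, 83 (67.5%) were lower in all 3 and 6 in none. The share of all 10356 genes that moved alike in all 3 was not computed, so no excess is claimed. A further 101 of the 2-fold rises and 69 of the 2-fold falls in RH30, including MYOG, MYMX, SOX8, DOK7 and ADORA1, were not compared because they were below 1 TPM in at least one other line.

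**Figure D5:**
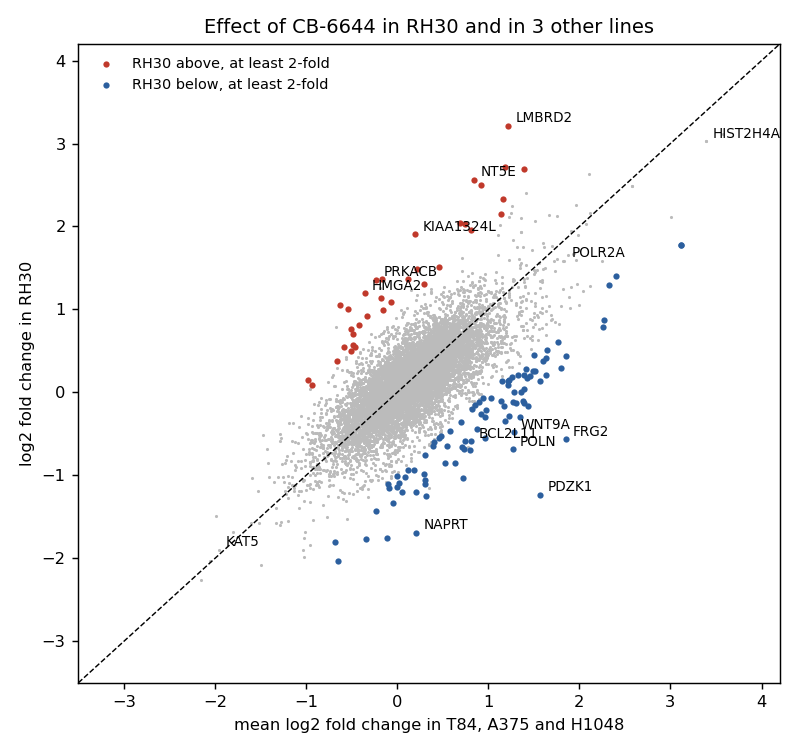
Log2 fold change after CB-6644 in RH30 (y axis) against the mean log2 fold change in T84, A375 and H1048 (x axis) for the 10356 genes at 1 TPM or more in each line, with a dashed line of equal effect. Genes whose difference passed the test and reached 2-fold are coloured, 34 above the line in red and 91 below it in blue.

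LMBRD2 had the largest excess. Its log2 fold change in RH30 was above the mean of the other lines by 1.99 (SE 0.10, limma, adjusted p = 3.07e-17), although it rose in each of them, by 0.91 in T84, 1.49 in A375 and 1.26 in H1048. NT5E was above by 1.73, with rises of 0.43 in T84, 1.12 in A375 and 0.96 in H1048. KIAA1324L, at 1.37, 1.39, 1.6 and 1.39 TPM in DMSO and 8.16, 7.48, 7.96 and 8.92 TPM in CB-6644, was above by 1.71, with 0.035 in T84, 0.32 in A375 and 0.24 in H1048. PRKACB, a catalytic subunit of protein kinase A, rose from 32.9 ± 0.471 to 85.8 ± 2.2 TPM against -1.03 in T84, 0.03 in A375 and 0.31 in H1048, a difference of 1.59. HMGA2 rose in RH30 and was lower in the others (-0.58 in T84, -0.25 in A375 and -0.25 in H1048, difference 1.55). Of the 10356 genes compared, 59 were higher in RH30 and lower in each of the other 3 lines, and 109 the reverse. Each call and the difference between lines had to pass the threshold. Some of these changes were small, such as 0.12 for IPO7 and -0.092 for MDH2 in RH30. The same count was not made for another line, so the numbers are not shown to be particular to RH30.

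PDZK1, a scaffold protein of membrane transporters, stood out in the other direction. It was at 23.6, 24.6, 21.8 and 25.3 TPM in DMSO and 8.65, 10.2, 8.98 and 10.6 TPM in CB-6644 in RH30, and its log2 fold change of -1.23 compared with rises of 1.32 in T84, 1.54 in A375 and 1.85 in H1048, a difference of -2.8 (SE 0.10, limma, adjusted p = 1.5e-20). FRG2 (difference -2.42), POLN, a DNA polymerase (-1.96), and WNT9A, a Wnt ligand (-1.76), also fell in RH30 and rose in each other line. NAPRT, an enzyme of NAD synthesis, fell from 7.02 ± 0.868 to 1.48 ± 0.227 TPM in RH30 against changes of 0.27 in T84, -0.24 in A375 and 0.59 in H1048, a difference of -1.9. BCL2L11 fell in RH30 and rose by 0.71 in T84, 1.51 in A375 and 0.23 in H1048 in the others (difference -1.41). EGR1 (difference -1.42) and CCND1 (-0.89) were also below the other lines, where CCND1 changed by 0.42 in T84, 0.39 in A375 and -0.24 in H1048. EGR1 fell in T84 (-0.78) and H1048 (-0.95) as well, and rose in A375 (0.70). FGFR4 fell in RH30 and changed by -0.54 in T84, 0.27 in A375 and 0.27 in H1048 in the other lines (difference -0.71). CDKN1A rose in all 4 lines but less in RH30 (difference -0.70).

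For some of the large changes no difference between RH30 and the other lines was detected. KAT5 changed by -1.9 in RH30 and by -1.61 in T84, -1.88 in A375 and -2.39 in H1048 in the others, a difference of 0.058 (SE 0.092, limma, adjusted p = 0.609). MYC had a difference of -0.10 (SE 0.054, adjusted p = 0.112 from limma) and HIST2H4A of -0.36 (SE 0.19, adjusted p = 0.104 from limma). The difference of HIST2H4A was -0.52 and passed without DMSO replicate 4 (limma, adjusted p = 0.0167). POLR2A rose in each line, by 1.84 in T84, 1.93 in A375 and 1.74 in H1048 in the others, and its rise in RH30 was below their mean by -0.25 (SE 0.065, limma, adjusted p = 0.0018).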

How the data were processed

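Messenger RNA of RH30 was measured in 4 CB-6644 and 4 DMSO libraries, grouped by their labels. The deposited values are TPM: the authors sequenced poly-A RNA in single-end reads of 76 bases, pseudo-aligned them to hg38 with kallisto (version not given in the sources used here), removed low-abundance transcripts at a limit not given there, and summed transcripts to genes with tximport. A pseudo-aligner divides reads among near-identical copies, so values of such genes are uncertain. The other tables of the series were not analysed here.

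From these TPM, log2(TPM + 1) was computed for the 12153 genes that averaged 1 TPM or more, and the groups were compared with limma 3.58.1 under R 4.3.3 (empirical Bayes with a trend, Benjamini-Hochberg adjustment over all genes tested, threshold 0.05). The difference between lines was a contrast in one limma fit of 32 libraries. On simulated data of the first design, 90% of 200 genes changed by 0.5 (log2) and 100% of 200 changed by 1 were recovered, with 5.26% and 3.38% of calls false. Only 200 of 12153 genes changed in each simulation, while 77.7% were called in the data, so these shares may not carry over. No test was made on gene lists, which are described by counts and medians. The alternatives were no filter, a filter at 5 TPM, a pseudocount of 0.1, median-of-ratios scaling, a replicate block, all 32 libraries in the fit, no trend, and leaving out each library.

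The genes named are the 10 largest rises and 10 largest falls among genes past the threshold, without overlap of the groups and at 5 TPM or more in the higher group, up to 3 rises and 3 falls of each list without overlap, the 5 largest differences between lines on each side, the markers of the cell type and a fixed set of regulators. Members and lists were chosen with earlier results of these data known. Of 19875 gene names, 541 matched no symbol or synonym and were tested as named, and 1287 of 1328 list members had a row. HSPA1A and some other genes that the rule selects are not reported here.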

Additional observations from a re-analysis of the deposited data

Results flagged for a closer look

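Among the 118 genes whose values are given here, 1 of the 4 libraries of a group lay far from the other 3 (Dixon's test at the 95% level) in 17 of 236 groups, and chance flags about 1 in 20 groups. In DMSO the library apart was the highest for MYL1 (17.6 TPM), CCND1 (138 TPM), KIAA1324L (1.6 TPM) and NAPRT (8.31 TPM), and the lowest for PRR5 (13.6 TPM), NOS1 (8.63 TPM), EGR1 (10.9 TPM), ORC6 (76.1 TPM), BBC3 (8.31 TPM), ATF5 (16.2 TPM) and MYCN (9.74 TPM). In CB-6644 it was the highest for MYOG (7.01 TPM, next 5.43), DMD (16.1 TPM), CCND1 (85.1 TPM), SREBF1 (17.5 TPM) and MKI67 (179 TPM), and the lowest for GABARAPL1 (99.97 TPM).

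The effect of CB-6644 in RH30 differed from the mean effect in T84, A375 and H1048 by the limma contrast for 2849 genes above it and 3013 below it. Of the 118 genes, 91 were compared in this way, of which 29 lay above and 30 below. Among those whose difference is given in the report, RH30 was above by 1.99 (LMBRD2), 1.73 (NT5E), 1.71 (KIAA1324L), 1.59 (PRKACB) and 1.55 (HMGA2) on the log2 scale. It was below, with differences of -2.80 (PDZK1), -2.42 (FRG2), -1.96 (POLN), -1.90 (NAPRT), -1.76 (WNT9A), -1.42 (EGR1), -1.41 (BCL2L11), -0.89 (CCND1), -0.71 (FGFR4), -0.70 (CDKN1A) and -0.25 (POLR2A).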

How the results depend on the processing

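More genes were higher than lower in RH30 under each alternative run but median-of-ratios scaling (4603 higher and 4655 lower). Leaving out 1 library at a time gave 5892 to 6045 higher and 3180 to 3278 lower genes in RH30. Between lines these counts were 2661 to 2811 above and 2783 to 2965 below. Without the filter 4929 genes lay below the other lines, where more genes were tested. Counts of 2-fold changes depended on the pseudocount and filter: with a pseudocount of 0.1, 670 genes were higher in RH30 and 71 and 156 lay above and below the other lines; with a mean of at least 5 TPM they were 265, 18 and 29, and without the filter 79 and 260 lay above and below. Scaling turned the sign of CCT8 (-0.021), MKI67 (-0.11) and ATM (-0.037), of which MKI67 passed the threshold (limma, adjusted p = 0.0011). Leaving out 1 library gave -0.023 (without CB-6644 replicate 2) to 0.13 for the difference of KAT5 between lines. The call of CHRNA1 was lost with all 32 libraries fitted, with no trend and without CB-6644 replicate 2. With the replicate block, 6208 genes were higher and 3402 lower (2853 and 3027 between lines). The correlations of same-numbered deviations were 0.069, 0.14, -0.0078 and 0.049, so the numbers were not taken as pairs, and CB-6644 replicate 3 correlated best with DMSO replicate 4 (0.088). Depth is unknown, so how much of the spread of low genes is counting error cannot be said.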
